A study of Homo sapiens with 6 samples.

Results

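The 10 genes described here encode subunits of the transcription factor NF-kB and the IkB proteins that hold it in the cytoplasm. They also encode regulators of the kinase that marks those proteins for destruction. They were chosen by gene symbol, matched through their Ensembl identifiers, from 60856 features measured in Jurkat cells, and all 10 were among the 15490 genes with enough counts to test. Jurkat is a line of human T lymphocytes from a leukemia, labelled here as wild type. Polyadenylated RNA was sequenced from 3 libraries of cells treated with BPAF (bisphenol AF, a fluorinated relative of bisphenol A) at 1 µM and from 3 libraries of cells given the vehicle, 0.1% dimethyl sulfoxide (DMSO). The label of every sample gives 12 h of exposure, whereas the treatment protocol gives 24 h. All 6 libraries come from 1 cell line, so the comparison describes that line only. The series title asks about an inflammatory response, which is the question that NF-kB genes bear on.

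NF-kB is a family of dimers built from 5 proteins that share a DNA-binding Rel homology domain. In resting cells, IkB proteins mask the dimers. Signals from the T-cell receptor, tumor necrosis factor receptors or Toll-like receptors activate the IkB kinase, which marks IkB for destruction and frees the dimers to enter the nucleus. Several of the inhibitors are themselves NF-kB target genes, so their transcripts commonly rise when the pathway is active. The activity itself is controlled largely at the protein level, and the measurements here are of transcripts.

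The kappa B sequence through which NF-kB acts lies in promoters of several of these genes, and the matches are shown because they mark the members with a possible feedback on themselves. RefSeq promoter windows (GRCh38.p14, 250 bases before to 50 after a start site) were given for 8 of the 10 members, in 16 windows, and were not given for RELB and NFKBIE. The kappa B consensus was searched by name on both strands. It was found in 7 of the 16 windows, which belong to 6 genes, against 11.3% of all 35116 windows of this length. The windows of 1 gene can overlap, and a match is not evidence of binding. In the sequences, read along the gene's strand with 10 flanking bases where the window allows, capitals mark every base inside a match, and runs longer than 10 capitals hold overlapping matches.
NFKB1, chr4:102501300-102501329 (+): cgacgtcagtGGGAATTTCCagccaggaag
NFKB2, chr10:102394461-102394491 (+): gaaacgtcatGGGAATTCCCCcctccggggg
NFKB2, chr10:102394490-102394519 (+): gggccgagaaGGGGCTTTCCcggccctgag
NFKB2, chr10:102395519-102395548 (+): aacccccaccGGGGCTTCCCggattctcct
NFKB2, chr10:102395674-102395703 (+): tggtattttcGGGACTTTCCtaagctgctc
REL, chr2:60881517-60881547 (+): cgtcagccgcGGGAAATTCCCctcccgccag
NFKBIA, chr14:35404811-35404840 (-): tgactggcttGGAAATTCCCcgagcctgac
NFKBIB, chr19:38899931-38899961 (+): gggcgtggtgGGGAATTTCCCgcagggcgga
NFKBIB, chr19:38899997-38900018 (+): gggcgactgcGGGGGGCCCCtg
TNFAIP3, chr6:137867182-137867223 (+): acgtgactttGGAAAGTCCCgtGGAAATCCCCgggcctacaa
The windows given for RELA and IKBKG held no such letters.

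The libraries held 20253656 to 22617613 counts, and a member had between 21 and 1922 counts in a library. All 13 T-cell markers examined were tested, with a summed level of 4230 to 4353 TPM in BPAF libraries and 4078 to 4304 TPM in DMSO libraries, and 0 of them passed. TPM (transcripts scaled to a fixed library sum) are levels scaled for gene length. Markers of other cell types were scarce: 7 myeloid markers summed to 0.43 to 2.45 TPM in BPAF and 0.20 to 1.29 TPM in DMSO, 5 epithelial markers to 1.21 to 1.47 and 0.52 to 0.68 TPM, and 5 fibroblast markers to 1.03 to 1.81 and 1.35 to 1.53 TPM. EPCAM, KRT19, CDH1, COL3A1 and DCN had 0 counts in all 6 libraries. Among B-cell markers, CD79A was at 21.7 ± 1.81 TPM in BPAF and 23.0 ± 1.82 TPM in DMSO (SD, n = 3 each), whereas MS4A1, CD79B, PAX5 and CD22 did not exceed 2 counts in any library.

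None of the 10 members passed the test between BPAF and DMSO cells (edgeR quasi-likelihood test, Benjamini-Hochberg adjusted p from 0.102 to 0.899), where 6.06% of all tested genes did. DESeq2 and limma-voom also called 0 members. An unadjusted edgeR p under 0.05 was found for 2 of the 10, REL and NFKBIB, against 19.9% of all tested genes. The groups did not overlap in CPM (counts scaled to a common library size, here by TMM) for 1 of the 10, REL, against 24.8% of all tested genes. The median log2 fold change of the members was -0.0061, beside 0.0019 for all tested genes. The 5 subunit genes had log2 fold changes above 0, from 0.017 to 0.34, and the 5 genes of inhibitors and regulators had values below 0, from -0.12 to -0.029, none of them past the threshold, where 50.8% of all tested genes had a value above 0. Those signs turned for NFKB1 without BPAF replicate 3 and for NFKBIE without BPAF replicate 3 or DMSO replicate 3. The sign of TNFAIP3 turned when it was summed with its antisense gene AL357060.1, and on the TPM scale. On log2(TPM + 1) its value of 0.070 lay below the median of all tested genes, 0.078. The inhibitors and regulators are not a single functional class, since IKBKG encodes a subunit of the IkB kinase. The 95% interval of the change, not adjusted for the number of genes, lay within a 1.3-fold change either way for 9 of the 10 members and within a 1.2-fold change for 6. RELB, with the fewest counts, was the exception to the first of these. Because whole cultures were sequenced, fewer cells of a kind and less RNA per cell cannot be told apart.

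Per length, the members spanned a wide range of levels with much the same order in both groups. RELA was the most abundant, at 72.6 ± 3.84 TPM in BPAF and 63.8 ± 5.21 TPM in DMSO (SD, n = 3 for these and the following levels). It was followed by NFKBIB at 45.3 ± 1.78 TPM in BPAF and 48.3 ± 2.10 TPM in DMSO. A middle group held NFKB1 (26.1 ± 2.29 TPM in BPAF, 24.3 ± 0.89 in DMSO), IKBKG (23.7 ± 1.13 and 24.8 ± 4.82), NFKBIA (20.3 ± 2.17 and 20.4 ± 1.63), TNFAIP3 (19.97 ± 2.22 and 19.1 ± 2.97) and NFKB2 (19.0 ± 1.64 and 14.8 ± 2.85). Within it, the ranges of NFKB1 and IKBKG overlapped in each group, as did those of NFKBIA and TNFAIP3 and those of TNFAIP3 and NFKB2. NFKB1 stood above IKBKG by mean in BPAF and below it in DMSO, the only exchange of places. NFKBIE (7.22 ± 1.32 TPM in BPAF, 7.25 ± 1.29 in DMSO), REL (3.71 ± 0.15 and 2.99 ± 0.31) and RELB (1.66 ± 0.33 and 1.42 ± 0.072) followed in that order, with no overlap of their ranges in either group.

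**Figure D1:**
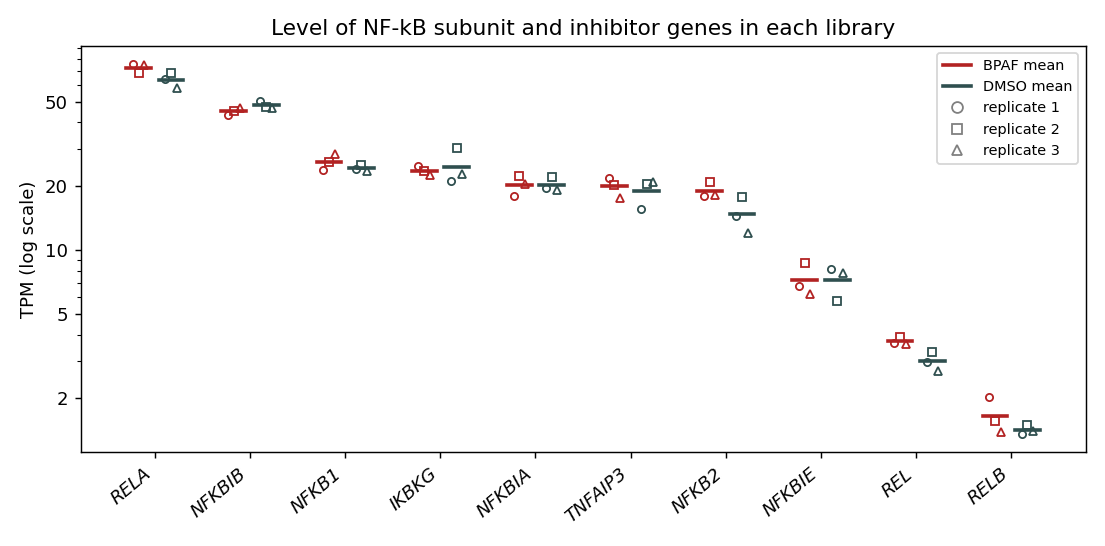
Level of each gene in TPM (log axis), with BPAF libraries left of DMSO libraries for each gene, bars for the mean of 3 libraries and symbols for the replicates. RELA stands highest at 72.6 TPM in BPAF and 63.8 TPM in DMSO, and RELB lowest at 1.66 and 1.42 TPM.

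Among the subunits, REL encodes c-Rel, a transactivating subunit found mainly in lymphocytes and other blood cells, and it was the member nearest to the threshold. REL (ENSG00000162924, GRCh38 chromosome 2, 60881521 to 60931610, plus strand) had 27.6, 29.96 and 27.0 CPM in BPAF libraries, against 24.3, 26.6 and 22.7 CPM in DMSO libraries. Every BPAF value lay above every DMSO value, by a narrow margin between the lowest BPAF and the highest DMSO library. The log2 fold change was 0.20 ± 0.070 (SE), a difference of 14.8% with a 95% interval from 3.73 to 27.1%, and it did not pass (edgeR adjusted p = 0.102, 0.0517 to 0.533 over the alternatives). Its deposited counts were not whole. Its annotated span shares 5702 bases with AC010733.2, a non-coding RNA on the same strand, which had 19.7, 19.4 and 20.7 CPM in BPAF and 22.1, 19.2 and 22.5 CPM in DMSO. REL and AC010733.2 counted together had 48.1 ± 1.08 CPM in BPAF and 45.8 ± 0.64 CPM in DMSO, a log2 difference of 0.071 (edgeR adjusted p = 0.452). That sum was chosen after the values were seen.

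RELA encodes p65, the main transactivating subunit of the canonical pathway (ENSG00000173039, chromosome 11, 65653596 to 65663094, minus strand). It had 80.8, 81.6 and 83.7 CPM in BPAF and 78.1, 81.8 and 77.95 CPM in DMSO, and the groups overlapped through DMSO replicate 2. The log2 fold change was 0.050 ± 0.040 (SE), with a 95% interval from -2.32 to 9.76%. On the TPM scale the difference was larger, 0.19 on log2(TPM + 1), and did not pass either (limma adjusted p = 0.237), while the median of all tested genes on that scale was 0.078. NFKB1, which encodes the precursor p105 and the DNA-binding subunit p50 (ENSG00000109320, chromosome 4, 102501329 to 102617302, plus strand), had 60.6, 65.8 and 67.8 CPM in BPAF and 63.96, 64.4 and 63.7 CPM in DMSO. The DMSO values were nearly identical and lay inside the BPAF range. Its log2 fold change was 0.017 ± 0.047 (SE).

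The remaining subunits, NFKB2 and RELB, form the dimer of the alternative pathway. NFKB2, which encodes p100 and its product p52 (ENSG00000077150, chromosome 10, 102394110 to 102402529, plus strand), had 27.8, 30.1 and 27.3 CPM in BPAF and 26.7, 29.1 and 23.0 CPM in DMSO. Its groups overlapped in CPM, with DMSO replicate 3 the lowest library. In TPM they did not, with 17.98, 20.9 and 18.1 TPM in BPAF and 14.5, 17.8 and 12.1 TPM in DMSO. The margin between BPAF replicate 1 and DMSO replicate 2 was narrow. The log2 fold change from counts was 0.11 ± 0.077 (SE, edgeR adjusted p = 0.470). With 1 library left out it was 0.022 (without DMSO replicate 3) to 0.19 (without DMSO replicate 2), with 0.068 without BPAF replicate 2. On log2(TPM + 1) the difference was 0.35 and did not pass (limma adjusted p = 0.233), while the median of all tested genes on that scale was 0.078. RELB (ENSG00000104856, chromosome 19, 45001430 to 45038198, plus strand) had 32, 46 and 25 counts in BPAF and 21, 37 and 21 counts in DMSO. The counts of the groups overlapped, and replicate 2 was the highest in each. Its log2 fold change of 0.34 ± 0.33 (SE) had a 95% interval from -20.7 to 103.2%, the widest of the members. It was 0.026 without BPAF replicate 2 and 0.68 without DMSO replicate 2, and 0.18 to 0.56 without 1 of the other libraries. The coefficient of variation between libraries was 36.9% in BPAF and 37.0% in DMSO, against 17.1% and 19.5% from counting alone.

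**Figure D2:**
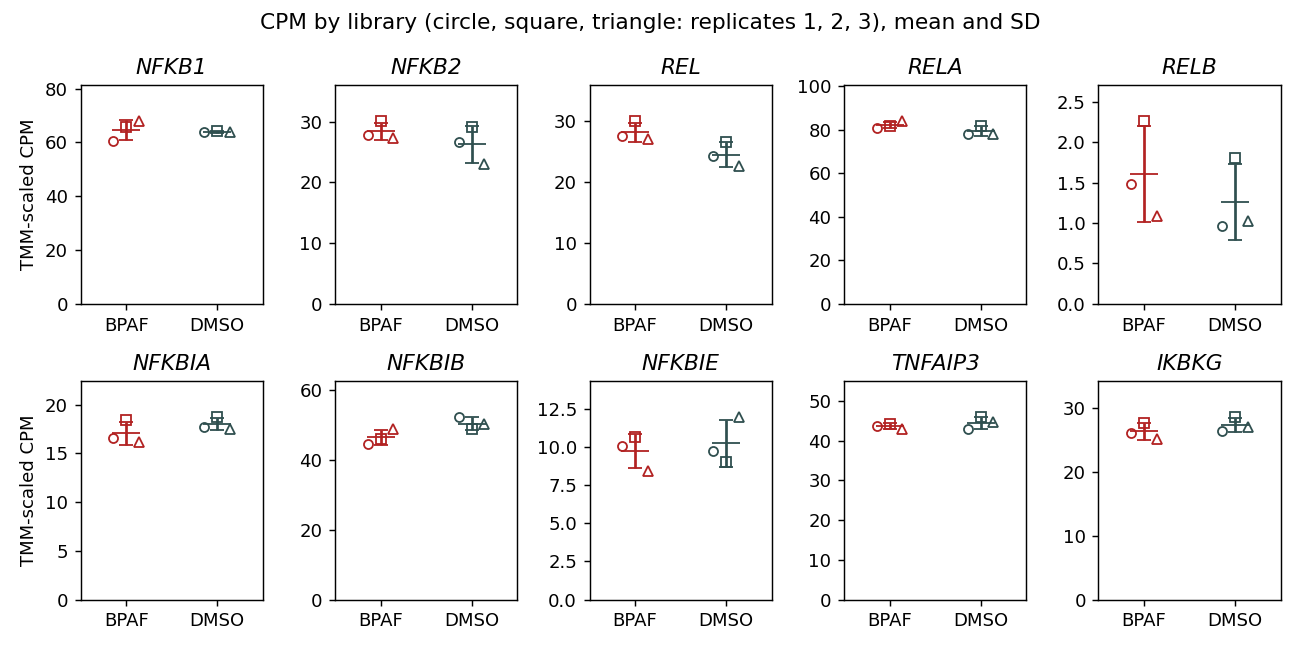
TMM-scaled CPM of each gene, with BPAF left of DMSO, symbols for single libraries, and the mean with its SD over 3 libraries. REL is the only panel in which all 3 BPAF libraries lie above all 3 DMSO libraries.

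The IkB genes encode the cytoplasmic inhibitors. NFKBIA encodes IkB alpha, the inhibitor that is degraded first on stimulation and resynthesized as an NF-kB target. NFKBIA (ENSG00000100906, chromosome 14, 35401511 to 35404749, minus strand) had 16.6, 18.4 and 16.2 CPM in BPAF and 17.8, 18.7 and 17.5 CPM in DMSO. The groups overlapped, and replicate 2 was the highest in each. The difference was -5.39% with a 95% interval from -15.6 to 6.07% (log2 fold change -0.080 ± 0.079, SE, edgeR adjusted p = 0.642). NFKBIB encodes IkB beta, a more slowly turned over inhibitor (ENSG00000104825, chromosome 19, 38899700 to 38908893, plus strand). It had 44.5, 46.1 and 48.8 CPM in BPAF and 52.3, 48.8 and 50.2 CPM in DMSO, with the groups touching where the highest BPAF library met the lowest DMSO library. Its log2 fold change was -0.12 ± 0.051 (SE, edgeR adjusted p = 0.203), with a 95% interval from -14.4 to -0.67%. Some of its deposited counts were not whole, and it overlaps SIRT2 on the opposite strand by 163 bases. SIRT2 had 38.8 ± 1.43 CPM in BPAF and 36.8 ± 1.25 CPM in DMSO. NFKBIE, which encodes IkB epsilon (ENSG00000146232, chromosome 6, 44258166 to 44265788, minus strand), had 10.1, 10.6 and 8.45 CPM in BPAF and 9.75, 8.996 and 11.9 CPM in DMSO. Its libraries were interleaved between the groups, and its log2 fold change was -0.075 ± 0.12 (SE).

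TNFAIP3 and IKBKG act on the kinase step. TNFAIP3 encodes A20, a ubiquitin-editing enzyme and NF-kB target that shuts signalling down (ENSG00000118503, chromosome 6, 137867188 to 137883312, plus strand). It had 43.8, 44.2 and 42.9 CPM in BPAF and 42.96, 45.9 and 44.7 CPM in DMSO, which overlapped. The 95% interval of the difference ran from -8.85 to 5.41%. The antisense gene AL357060.1 shares 1046 bases with it and had 33.2, 32.9 and 33.9 CPM in BPAF and 31.1, 29.2 and 28.8 CPM in DMSO (log2 fold change 0.17, edgeR adjusted p = 0.0983). The sources used here do not state whether the counting used strand, so reads in the shared stretch cannot be assigned to either gene with certainty. Summed, both had 76.95 ± 0.17 CPM in BPAF and 74.2 ± 0.85 CPM in DMSO (log2 fold change 0.052, edgeR adjusted p = 0.515), a sum chosen after the values were seen. IKBKG encodes NEMO, the regulatory subunit of the IkB kinase (ENSG00000269335, chromosome X, 154541199 to 154565046, plus strand). It had 26.1, 27.8 and 25.2 CPM in BPAF and 26.4, 28.6 and 26.99 CPM in DMSO, with a log2 fold change of -0.054 ± 0.064 (SE). Its counts were not whole and it has a near-identical pseudogene, IKBKGP1, at 10.98 ± 0.67 CPM in BPAF and 10.5 ± 0.97 CPM in DMSO, so the split of reads between them is uncertain. Counted together they had 37.3 ± 1.43 CPM in BPAF and 37.9 ± 0.93 CPM in DMSO (log2 fold change -0.020, edgeR adjusted p = 0.893), a sum chosen after the values were seen.

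**Figure D3:**
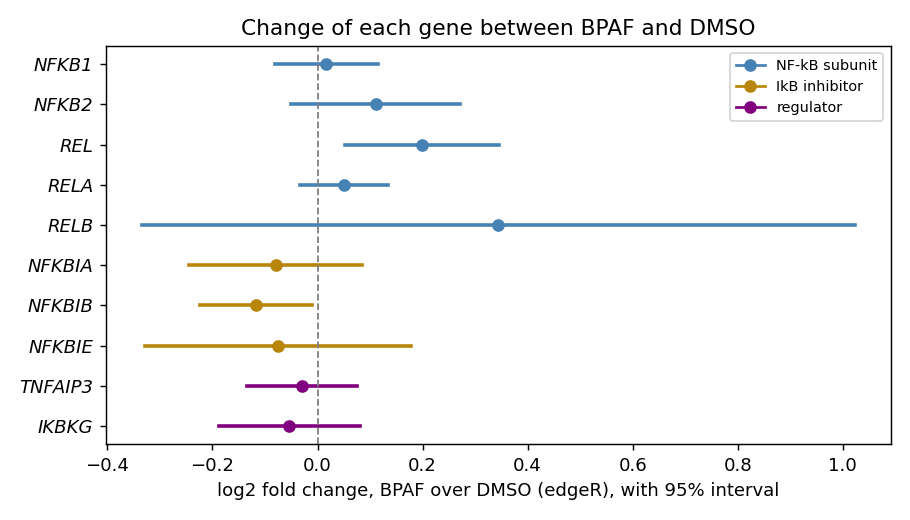
Log2 fold change of each gene in BPAF over DMSO cells from edgeR, with its 95% interval, colored by role. Subunits lie right of 0 (0.017 to 0.34) and inhibitors and regulators left of it (-0.12 to -0.029), and 0 of the 10 passed the test after adjustment.

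Replicate 2 was the highest library of its group in both groups for 6 of the 10 members (NFKB2, REL, RELB, NFKBIA, TNFAIP3 and IKBKG), against 10.9% of all tested genes. This count was chosen after the values were seen. Over all tested genes, the deviations of BPAF replicate 2 and DMSO replicate 2 from their group means had a correlation across genes of -0.043, and genes are not independent replicates. The genes whose log2 CPM followed REL most closely over the 6 libraries were KLC1-AS1, BATF and MBD6 (Pearson r = 0.996, 0.992 and 0.990). NSMCE1, IPO11 and ASB13 followed NFKBIA (r = 0.996, 0.987 and 0.984). These were the highest of 11868 genes over 6 points that share library and depth, and are given as a description only.

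Around the members, 6 lists of pathway genes held 78 tested genes, of which 3 rose and 0 fell, and all 3 belonged to the list of ubiquitin regulators. That list had 24 tested genes and a median log2 fold change of -0.018. In all tested genes 2.65% rose and 3.4% fell. The members and these lists were chosen with earlier results of the same libraries known.

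RBCK1 and RNF31 encode HOIL-1 and HOIP, which with SHARPIN form the linear ubiquitin chain assembly complex that modifies NEMO. RBCK1 had 142.4, 140.9 and 135.8 CPM in BPAF and 122.9, 127.5 and 123.6 CPM in DMSO, with no overlap. Its log2 fold change was 0.16 ± 0.034 (SE, edgeR adjusted p = 0.00726). RBCK1 passed in 5 of 6 fits with 1 library left out, the exception being that without BPAF replicate 1 (edgeR adjusted p = 0.0634). RNF31 had 29.6, 36.5 and 30.3 CPM in BPAF and 20.3, 26.1 and 25.0 CPM in DMSO, again with no overlap, and it was higher by 0.43 ± 0.11 on the log2 scale (SE, edgeR adjusted p = 0.0425). PSME2, a protein-coding gene on the opposite strand with a mean of 2560 counts a library, shares 888 bases with RNF31. Whether the counting used strand is not stated. AL136295.5, a protein-coding gene model on the same strand, shares 9444 bases with RNF31 and had 21.0, 14.7 and 19.4 CPM in BPAF and 26.7, 24.2 and 22.8 CPM in DMSO. RNF31 and AL136295.5 summed to 50.5 ± 0.75 CPM in BPAF and 48.4 ± 1.71 CPM in DMSO (log2 fold change 0.061, edgeR adjusted p = 0.536), so the rise of RNF31 is uncertain. That sum was chosen after the values were seen. RNF31 lost its call in 4 of 6 fits with 1 library left out, those without BPAF replicate 1 (edgeR adjusted p = 0.0577), BPAF replicate 3 (0.100), DMSO replicate 1 (0.0621) or DMSO replicate 3 (0.106). SHARPIN, named after its value was seen, was at 25.8 ± 1.82 CPM in BPAF and 23.7 ± 2.05 CPM in DMSO and did not pass (log2 fold change 0.12, edgeR adjusted p = 0.411).

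TRAF5, an adaptor of tumor necrosis factor receptors, had 108.2, 100.3 and 109.1 CPM in BPAF and 92.2, 93.7 and 93.0 CPM in DMSO, with no overlap. Its log2 fold change was 0.19 ± 0.040 (SE, edgeR adjusted p = 0.00734), and it lost its call without BPAF replicate 1 (edgeR adjusted p = 0.0610) or BPAF replicate 3 (0.0516). The deposited counts of RBCK1, RNF31 and TRAF5 were not all whole. TAX1BP1, a partner of A20, had the next smallest p of the list, with 72.7 ± 0.84 CPM in BPAF and 78.6 ± 2.51 CPM in DMSO (log2 fold change -0.11, edgeR adjusted p = 0.116).

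**Figure D4:**
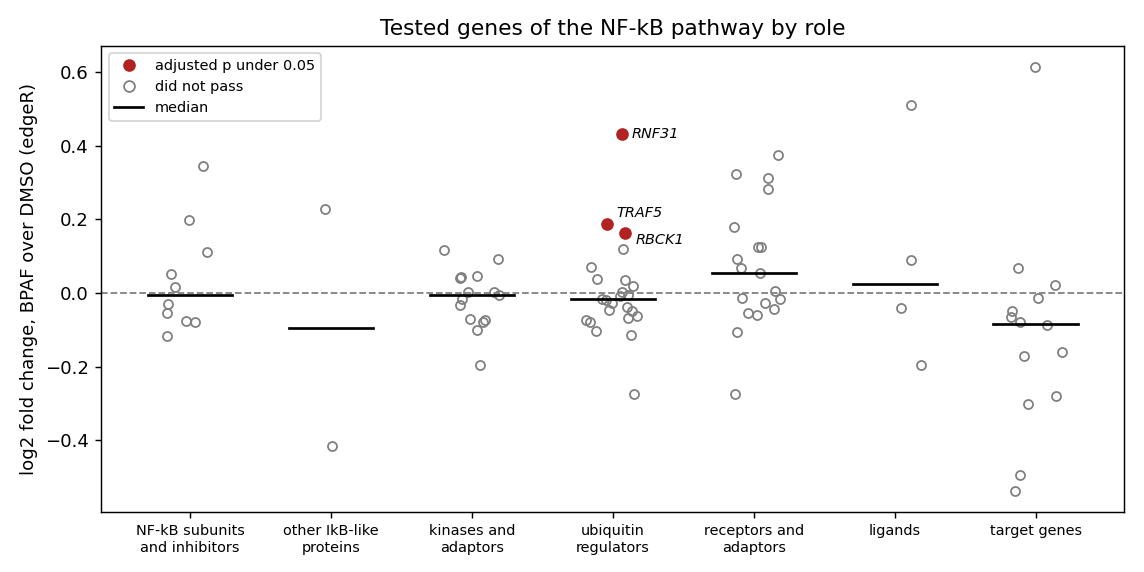
Log2 fold changes in BPAF over DMSO cells of the tested genes of each role in the NF-kB pathway, with the median of each group as a bar. RNF31, TRAF5 and RBCK1, at 0.43, 0.19 and 0.16, are the only filled points, which mark an adjusted p under 0.05.

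The other lists gave 0 calls in the main edgeR fit, which called 6.06% of all tested genes. Of 15 kinases and adaptors above IkB, 7 had a log2 fold change above 0 (median -0.0049), against 50.8% of all tested genes. An unadjusted edgeR p under 0.05 was found for 2 of the 15, against 19.9% of all tested genes. These were MALT1, the protease of the T-cell receptor signalosome, at 15.7 ± 0.18 CPM in BPAF and 18.0 ± 0.99 CPM in DMSO (edgeR adjusted p = 0.161), and IKBKB, a catalytic subunit of the IkB kinase, at 91.4 ± 1.04 and 85.7 ± 1.44 CPM (0.169). The other catalytic subunit, CHUK, was at 86.0 ± 5.18 CPM in BPAF and 90.5 ± 3.41 CPM in DMSO, and TANK, an adaptor of the kinase TBK1, at 21.4 ± 0.31 and 22.95 ± 0.98 CPM. Of 3 other IkB-like proteins, BCL3 had at most 5 counts in a library. NFKBID was at 11.1 ± 0.57 CPM in BPAF and 9.51 ± 1.17 CPM in DMSO (edgeR adjusted p = 0.245), whereas its TPM ran the other way, at 8.55 ± 1.13 and 10.3 ± 2.05. NFKBIZ was at 2.55 ± 0.38 CPM in BPAF and 3.40 ± 0.88 CPM in DMSO (0.297).

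Receptors and ligands at the top of the pathway were partly silent in these cells. Of 32 receptor and adaptor genes, 19 were tested, with a median log2 fold change of 0.053. An unadjusted edgeR p under 0.05 was found for 0 of the 19, against 19.9% of all tested genes. The smallest p belonged to TRADD, the adaptor of the tumor necrosis factor receptor, at 19.9 ± 1.41 CPM in BPAF and 18.3 ± 0.95 CPM in DMSO. MYD88, the adaptor of Toll-like receptors, was at 93.9 ± 3.43 CPM in BPAF and 97.9 ± 4.17 CPM in DMSO. The receptor genes TNFRSF12A (1.90 ± 0.37 CPM in BPAF, 1.46 ± 0.41 in DMSO) and TNFRSF4 (2.57 ± 0.54 and 3.11 ± 0.43) did not pass either. The most abundant was IRAK1, a kinase of Toll-like and interleukin-1 receptors, at 89.2 ± 8.24 TPM in BPAF and 82.7 ± 4.60 TPM in DMSO. Of 13 ligand genes, 4 were tested. CD40LG, the CD40 ligand of T cells, was the highest of these at 16.6 ± 2.08 TPM in BPAF and 16.1 ± 0.96 TPM in DMSO, and TNFSF8 (CD30 ligand) had the smallest p, at 2.52 ± 0.43 and 1.76 ± 0.32 CPM (edgeR adjusted p = 0.230). TNFSF4 (OX40 ligand) was at 7.40 ± 0.48 CPM in BPAF and 6.95 ± 0.43 CPM in DMSO, and LTB (lymphotoxin beta) at 1.37 ± 0.43 and 1.56 ± 0.20 CPM. TNF itself had 5, 7 and 6 counts in BPAF and 15, 9 and 4 counts in DMSO, and LTA had 5, 7 and 4 in BPAF and 4, 4 and 9 in DMSO, so neither was tested. IL1B had at most 2 counts in a library, and IL33 and the receptor gene TLR2 had 0 counts in all 6.

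Of 38 NF-kB target genes outside these lists, 37 were matched and 14 were tested. The genes VCAM1, CXCL1, CXCL2, CXCL10, CCL3, IL6, CSF2, EBI3 and PTGS2, most of them inducible mediators of inflammation, had 0 counts in every library. Of the 14, 3 had a log2 fold change above 0 (median -0.083) and 5 had an unadjusted edgeR p under 0.05, against 50.8% and 19.9% of all tested genes, and 0 passed. CD69, an early activation marker, had 10.7, 11.4 and 11.6 CPM in BPAF and 13.4, 13.6 and 14.6 CPM in DMSO, with no overlap (edgeR adjusted p = 0.0530). Of 17 alternatives for CD69, only 1 passed, edgeR with no filter on low counts (adjusted p = 0.0495). The adjusted p of CD69 was 0.133 in DESeq2, 0.0596 in limma-voom, and 0.0803 to 0.207 in edgeR with 1 library left out. JUNB, an AP-1 subunit, was at 36.3 ± 2.09 CPM in BPAF and 40.5 ± 2.15 CPM in DMSO (edgeR adjusted p = 0.118). MYC, the most abundant of these targets, was at 466.3 ± 10.8 CPM in BPAF and 495.1 ± 21.0 CPM in DMSO (edgeR adjusted p = 0.120). The cytokine gene IL15 ran the other way, with 2.68, 2.31 and 2.31 CPM in BPAF and 1.65, 1.46 and 1.66 CPM in DMSO, and did not pass (edgeR adjusted p = 0.123).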

How the data were processed

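RNA sequencing of 3 BPAF and 3 DMSO libraries was analysed from deposited tables. Per the submitters' processing notes, FastQC, cutadapt, HISAT2 and featureCounts were used with GRCh38 (hg38); no versions, strand setting or annotation are stated. The authors' count table holds estimated counts per gene, 59.1% to 61.7% of the values above 0 being whole (tolerance 1e-09). The deposited TPM table holds TPM scaled for gene length, by steps that are not given in the sources used here. Of 60856 features, 192 carry no Ensembl identifier and took 0.254% of counts.

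Estimated counts were rounded to whole numbers, kept where filterByExpr passed them, normalized by TMM and fitted with edgeR 4.0.16 (R 4.3.3, quasi-likelihood, robust, no covariate), with Benjamini-Hochberg adjustment over 15490 genes and a threshold of 0.05. SE is the log2 fold change over the square root of F. The fit was tested on simulated data. Per the design text, the libraries are biological replicates; no pair of a group was as alike as sampling noise alone allows (chi-square over its degrees of freedom 2.38 to 4.08). Coordinates and overlaps come from GENCODE release 29 (GRCh38).

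The members and lists were chosen with earlier results of these data known. Named are all members, the 4 smallest p and the most abundant gene of each pathway list, and the 3 genes most like REL and NFKBIA among those whose average log2 CPM was 1 or more. Alternatives were other scalings and filters, DESeq2 1.42.0, limma 3.58.1 with voom or on log2(TPM + 1 or 0.1), the replicate number as a block, each library left out, and sums with overlapping genes or a pseudogene, added after the data were seen. Some genes are not reported here.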

Additional observations from a re-analysis of the deposited data

How the results depend on the processing

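In each of the 21 other settings tried, 0 of the 10 members passed, where 6.06% of all tested genes passed in the main fit. The limma fits on TPM called only 1, 2 and 0 of all genes, so they could hardly call a member. The sum for RNF31 changed no member's counts. Among the single values of the members, 166 of 173 kept direction and stayed on the same side of the threshold, and 7 reversed. Leaving out 1 library at a time gave log2 fold changes of -0.019 to 0.061 for NFKB1, -0.16 to 0.048 for NFKBIE, -0.013 to 0.025 for IRAK1 and -0.14 to 0.023 for CD40LG. With log2(TPM + 1), with log2(TPM + 0.1) and with log2(TPM + 1) and no filter, values were 0.070, 0.074 and 0.070 for TNFAIP3, -0.24, -0.26 and -0.24 for NFKBID, 0.112, 0.115 and 0.112 for TANK, 0.041, 0.042 and 0.041 for MYD88, and 0.036, 0.037 and 0.036 for CD40LG. The median of all genes in those TPM fits was 0.078, 0.089 and 0.045, so the scale as a whole was shifted upward. In the TPM fits with the filter, TNFAIP3, MYD88 and CD40LG lay below that median and TANK above it. TNFAIP3 with its antisense gene gave 0.052. The cause was not tested.

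Of all genes, 938 were called, against 1, 2 and 0 in those TPM fits and 322 (without BPAF replicate 1) to 861 with 1 library left out, 392 without BPAF replicate 3 and 482 without DMSO replicate 1. Of the pathway genes, 3 were called, against 0 in each TPM fit and 0 (without BPAF replicate 1) to 3 with 1 library left out, with 1 called without BPAF replicate 3. The edgeR fit with no filter on low counts called 4 pathway genes. With the replicate number as a block 826 genes, 0 members and 3 pathway genes were called, and REL had an adjusted p of 0.0721 in edgeR. Same-numbered libraries did not deviate together (correlation across genes 0.0010, -0.043 and 0.014), so the numbers are not taken as pairs. RELB had the fewest counts, 21 to 46 a library, and a spread between libraries beyond that of counting.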

Other observations

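The deposited TPM did not follow the counts by a fixed factor for each gene. TPM per CPM, relative to the median gene of the library, differed between the highest and the lowest library by 2.14-fold for RELB, 1.33-fold for NFKBIE and TNFAIP3, 1.295-fold for IKBKG and 1.23-fold for NFKB2, against a median of 1.11-fold over the 12796 genes at 1 TPM or more in every library. For REL and NFKB1 this ratio was 1.02-fold and 1.05-fold. TNFAIP3 had 15.6 TPM in DMSO replicate 1 and 20.9 TPM in DMSO replicate 3, at 42.96 and 44.7 CPM. For RELB the library with the most counts in BPAF, replicate 2 with 46, was listed at 1.56 TPM, below replicate 1, which had 32 counts and 2.03 TPM.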
